A study of Mus musculus with 4 samples.

Results

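The RNA exosome is a multi-subunit nuclease that degrades and trims RNA from its 3′ end, and its subunit genes were followed here in mouse testis. The members were the rows of the deposited count table whose gene symbol was Exosc1, Exosc2, Exosc3, Exosc4, Exosc5, Exosc7, Exosc8, Exosc9, Exosc10 or Dis3. All 10 were found among the 25265 genes of the table, and all 10 passed the filter on low counts, which left 21132 genes for testing. The remaining ring subunit, Exosc6, is not analysed here.

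The rRNA-depleted total RNA libraries came from whole testes of C57BL/6 mice, collected at postnatal day 56. The labels give 2 libraries of genotype control and 2 of genotype Ythdf2-vKO, and the series title describes the mutation as germ cell-specific. The labels do not give the promoter that drives the deletion, the deleted segment, the alleles carried by the control mice, or how many animals stand behind each library. P-values therefore measure the spread between these libraries, estimated in part across genes, and that spread may be technical.

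YTHDF2 binds RNA that carries N6-methyladenosine and directs it to decay. The exosome is a further branch of RNA decay, working in the nucleus and the cytoplasm. Its core is a barrel of catalytically inactive subunits related to RNase PH, namely EXOSC4 to EXOSC9, topped by a cap of the RNA-binding proteins EXOSC1, EXOSC2 and EXOSC3. The barrel threads RNA to DIS3, a processive 3′-to-5′ exonuclease that also has endonuclease activity, while EXOSC10 is a distributive exonuclease found mainly in the nucleus and nucleolus. The complex matures ribosomal RNA, small nuclear RNA and small nucleolar RNA, and removes short-lived nuclear transcripts. Loss of Exosc10 in male germ cells is known to impair spermatogenesis in mice.

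Total counts ran from 24862518 to 29561182 per library. The targeted gene, Ythdf2, was counted 1193 and 1604 times in the control pair and 1774 and 1807 times in the vKO-labelled pair. Its level was thus higher and not lower there (log2 fold change 0.35, SE 0.13, adjusted p 0.238), so directions below are those of the vKO-labelled pair of libraries relative to the control pair. Across all tested genes, 59 were called higher and 24 lower at an adjusted p under 0.05, which is 0.393% in either direction (0.279% higher and 0.114% lower). Higher genes made up 71.1% of these calls with TMM scaling, 83.0% with library totals alone and 56.8% with an offset for GC content. In 10 lists of cell type markers, written with earlier results known, 1 gene was called, the Sertoli gene Wt1, which was higher. Median log2 fold changes were 0.76 for erythrocyte, 0.43 for endothelial, 0.39 for Sertoli, 0.38 for Leydig and 0.36 for spermatogonial genes. They were 0.07 for macrophage, 0.06 for round spermatid, -0.05 for peritubular myoid, -0.13 for spermatocyte and -0.25 for elongating spermatid genes, against 0.0027 over all genes tested. The erythrocyte and endothelial medians, the 2 largest, rest on only 4 and 5 tested genes, with counts as low as 8 and 7 in a library. Of the 5 endothelial genes, 1 lay below 0. Fitted values were above 0 for 10 of 10 Sertoli genes (9 with the GC offset), 10 of 10 spermatogonial genes (8 with it) and 1 of 9 elongating spermatid genes (0 with it). The summed level of the Sertoli genes was 900 and 987 CPM in the control pair against 1270 and 1120 CPM in the vKO-labelled pair, of which Clu alone held 71.5% to 73.5%. The other 9 summed to 242 and 272 CPM against 336 and 320 CPM, and none of the 10 was at 0 in any library. The summed elongating spermatid level was 12400 and 10200 CPM in the control pair against 9630 and 9900 CPM in the vKO-labelled pair, again with no gene at 0. In whole testis, fewer cells of a type and less RNA per cell cannot be told apart, and the part of these differences in the exosome values was not tested.

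No exosome subunit was called different between the genotypes. By edgeR's quasi-likelihood test, 0 of 10 passed an adjusted p under 0.05, against 0.393% of all genes tested, and a DESeq2 Wald test also called 0. At an adjusted p under 0.1 there were still 0, against 1.03% of all genes. At an unadjusted p under 0.05 there were 3, with Exosc4 higher and Exosc9 and Exosc10 lower, against 14.1% of all genes tested (7.65% higher and 6.47% lower). Fitted log2 fold changes lay above 0 for 4 subunits and below 0 for 6, with a median of -0.14. Of all genes tested, 49.7% lay below 0. The 2 groups did not overlap for 8 of the 10 subunits, 3 higher and 5 lower, and for 45.3% of all genes tested. The nearest control and vKO-labelled libraries were almost equal for Exosc5 (241 and 243 CPM), Exosc2 (13.8 and 13.9 CPM) and Exosc7 (8.04 and 7.99 CPM). The 10 subunits were measured in the same libraries and are not 10 separate observations.

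**Figure D1:**
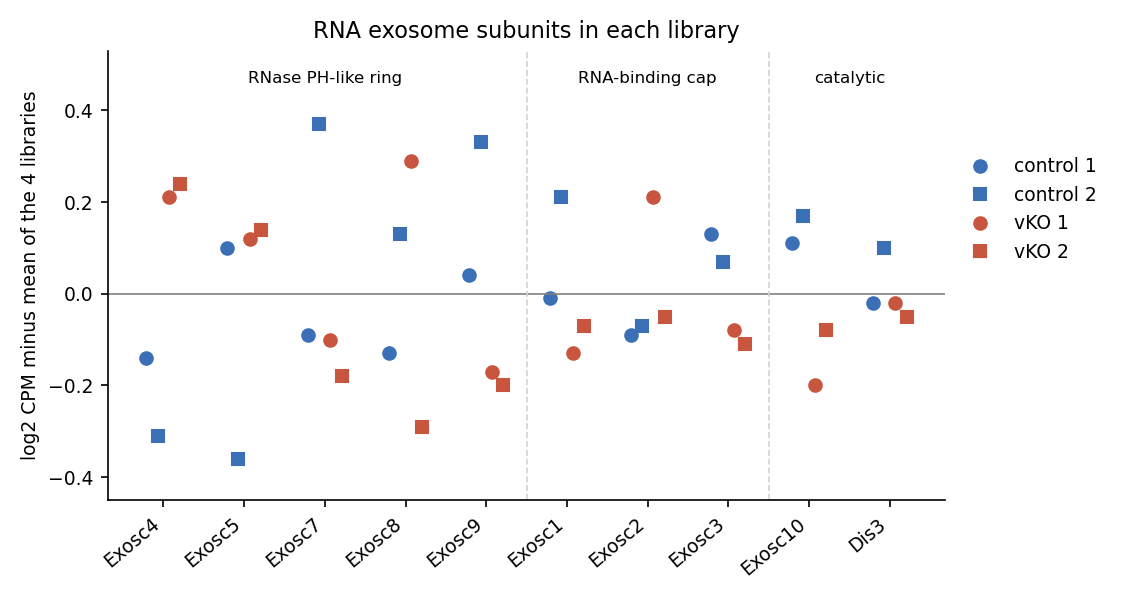
Log2 CPM of each subunit minus its mean over the 4 libraries (y axis), by gene (x axis), with the ring, cap and catalytic subunits separated by dashed lines. Blue points are control libraries and red points the libraries labelled vKO; circles are replicate 1 and squares replicate 2. Control replicate 2 lies farthest from 0 for Exosc4, Exosc5, Exosc7, Exosc9, Exosc1 and Dis3, reaching 0.37 for Exosc7 and -0.36 for Exosc5.

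The promoter stretches of the subunit with the most counts, Exosc5, and of the nuclear exonuclease subunit, Exosc10, are shown because both held one of the rarer elements searched for, while their fitted differences had opposite signs. Both are the 150 bases before the RefSeq transcription start (GRCm38.p6, plus strand), at chr7:25659003-25659152 for Exosc5 and chr4:148558269-148558418 for the first of 2 starts of Exosc10. Capitals mark matches on either strand to the core of the NRF1 element (GCATGCGC), the CCAAT box (CCAAT), the GC box (GGGCGG), the ETS core (CCGGAAG), the TATA box (TATAAA) and the cyclic AMP response element (TGACGTCA).
Exosc5: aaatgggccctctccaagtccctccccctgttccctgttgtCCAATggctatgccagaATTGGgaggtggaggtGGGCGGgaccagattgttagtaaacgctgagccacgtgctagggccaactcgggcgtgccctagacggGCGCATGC
Exosc10: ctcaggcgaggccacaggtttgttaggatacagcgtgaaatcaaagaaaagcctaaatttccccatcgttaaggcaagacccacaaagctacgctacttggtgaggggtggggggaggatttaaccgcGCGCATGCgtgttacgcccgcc

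The NRF1 core begins 8 bases before the start in Exosc5 and 22 bases before it in Exosc10, on the reverse strand in both. RefSeq held 9 promoters for 8 of the 10 members. Over the 250 bases before the start, the NRF1 core was present in 2 of these 9, against 2.26% of all 32851 promoters. The GC box was found in 6 of 9 (32.7% of all), the CCAAT box in 4 of 9 (33.8%) and the ETS core in 2 of 9 (6.91%). Neither the TATA box (12.4% of all) nor the cyclic AMP response element (1.55%) was found in any of the 9. GC content of the 9 ran from 45.6% (Exosc2) to 78% (Exosc8), where the median of all promoters was 52.4%. The shares were not compared at like GC content. A match describes these letters only.

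Among the ring subunits, Exosc4 and Exosc9 had the largest fitted differences, in opposite directions. Exosc4 (ENSMUSG00000034259, plus strand of chromosome 15, 76327397 to 76330677 in GRCm38) had 514 and 585 counts in the control pair against 748 and 773 in the vKO-labelled pair. Both libraries labelled vKO lay above both controls, at 28.3 ± 0.502 CPM against 20.8 ± 1.75 CPM (SD, n = 2 each). This is a fold of 1.36 (95% interval 1.10 to 1.70), a log2 fold change of 0.45 (SE 0.15), with an unadjusted p of 0.00869 and an adjusted p of 0.197. The difference did not pass the threshold over all genes. Of the 4 fits that left out 1 library, it passed in the one without control replicate 1, at a log2 fold change of 0.53 and an adjusted p of 0.0411, a fit that called 6.82% of all genes. It was 0.36 without control replicate 2 (adjusted p 0.247), and the adjusted p was 0.763 and 0.545 without replicate 1 and replicate 2 labelled vKO. EXOSC4 pairs with EXOSC9 in the ring.

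Exosc9 (ENSMUSG00000027714, plus strand of chromosome 3, 36552606 to 36565727) had 855 and 1347 counts in the control pair against 849 and 839 in the vKO-labelled pair. Scaled to library size, these were 36.6 and 44.9 CPM against 31.7 and 31.1 CPM, so that the groups did not overlap and the controls differed more from each other than the libraries labelled vKO did. The fitted log2 fold change was -0.38 (SE 0.14, adjusted p 0.262). It was -0.52 without control replicate 1, where it passed the threshold (adjusted p 0.0169), and -0.22 without control replicate 2 (adjusted p 0.528). Without replicate 1 or replicate 2 labelled vKO the adjusted p was 0.851 and 0.635.

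Exosc5 (ENSMUSG00000061286, plus strand of chromosome 7, 25659164 to 25671368), the partner of EXOSC8 in the ring, was the most counted subunit. It had 5638 and 5246 counts in the control pair against 6513 and 6688 in the vKO-labelled pair, and held between 29.7% and 40.7% of the counts of the 10 subunits in a library. Control replicate 1, at 241 CPM, lay beside the libraries labelled vKO at 243 and 248 CPM, and only control replicate 2 was low, at 175 CPM. On the log2 scale the fitted difference was 0.24 (SE 0.15, adjusted p 0.512). Leaving out control replicate 2 brought it to 0.03, whereas leaving out control replicate 1 brought it to 0.48 with an adjusted p of 0.00313. The adjusted p was 0.936 and 0.799 without replicate 1 and replicate 2 labelled vKO. The fitted difference of Exosc5 therefore depended on control replicate 2.

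The other ring subunits were counted less. Exosc7 (ENSMUSG00000025785, plus strand of chromosome 9, 123113215 to 123136129), whose protein pairs with EXOSC6, had 188 and 333 counts in the control pair against 214 and 205 in the vKO-labelled pair. Control replicate 2 was again the library that stood apart, at 11.1 CPM against 7.60 to 8.04 CPM in the other 3. The log2 fold change of -0.30 (SE 0.21, adjusted p 0.565) became -0.04 without that library. Exosc8 (ENSMUSG00000027752, minus strand of chromosome 3, 54728678 to 54735393) had 183 and 282 counts in the control pair against 281 and 189 in the vKO-labelled pair. Its groups overlapped fully, the replicates within each group spanning 7.83 to 9.41 CPM and 7.01 to 10.5 CPM. The log2 fold change was 0.02 (95% interval -0.46 to 0.50), an interval that leaves room for changes of the size seen in Exosc4.

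The 3 cap subunits, whose S1 domains contact RNA at the entry of the barrel, did not pass the unadjusted threshold. Exosc3 (ENSMUSG00000028322, minus strand of chromosome 4, 45316613 to 45342732) had 1442 and 1779 counts in the control pair against 1429 and 1412 in the vKO-labelled pair. At 61.7 and 59.3 CPM against 53.4 and 52.3 CPM its groups did not overlap and its replicates were close. Its fitted log2 fold change was -0.19 (SE 0.13, adjusted p 0.536), and it stayed between -0.22 and -0.17 when each library was left out in turn.

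Exosc1 (ENSMUSG00000034321, minus strand of chromosome 19, 41922292 to 41933423) had 575 and 859 counts in the control pair against 608 and 638 in the vKO-labelled pair. Its level was 26.6 ± 2.87 CPM against 23.2 ± 0.662 CPM (SD, n = 2 each), fitted at -0.20 on the log2 scale (SE 0.15, adjusted p 0.594). The higher control was replicate 2, at 28.7 CPM, and the log2 fold change was -0.08 without it. Exosc2 (ENSMUSG00000039356, plus strand of chromosome 2, 31670715 to 31681349) had 317 and 413 counts in the control pair against 446 and 375 in the vKO-labelled pair. Replicate 2 labelled vKO lay next to the controls, at 13.9 CPM against 13.6 and 13.8 CPM, and replicate 1 labelled vKO was higher, at 16.7 CPM. The log2 fold change of 0.16 (SE 0.17, adjusted p 0.731) ran from 0.02 to 0.28 over the fits that left out 1 library.

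Of the 2 catalytic subunits, the fitted value lay below 0 by more for the nuclear exonuclease than for DIS3, and neither was called. Exosc10 (ENSMUSG00000017264, plus strand of chromosome 4, 148558429 to 148582401) had 3003 and 4004 counts in the control pair against 2761 and 3024 in the vKO-labelled pair. This gave 128 and 134 CPM against 103 and 112 CPM, with both controls above both libraries labelled vKO. The fold was 0.821 (95% interval 0.685 to 0.985), a log2 fold change of -0.28 (SE 0.12), with an unadjusted p of 0.0358 and an adjusted p of 0.314. Leaving out single libraries kept it between -0.35 and -0.22. With an offset for GC content it was -0.36, and with that offset and the replicate number as a block it passed the threshold at an adjusted p of 0.0174, in a fit that called 6.26% of all genes. The adjusted p was 0.209 with the offset alone and 0.117 with the block alone.

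Dis3 (ENSMUSG00000033166, minus strand of chromosome 14, 99075206 to 99099770) had 2014 and 2812 counts in the control pair against 2307 and 2275 in the vKO-labelled pair. Control replicate 1 and replicate 1 labelled vKO were both at 86.2 CPM, the other 2 libraries at 93.8 and 84.3 CPM, and the groups overlapped. The log2 fold change was -0.08 (95% interval -0.34 to 0.19, adjusted p 0.837). Dis3l, the gene of the cytoplasmic exonuclease that takes the place of DIS3, was read in the same way though it is no member. It had 8640 and 9986 counts in the control pair against 9080 and 8646 in the vKO-labelled pair, fitted at -0.09 on the log2 scale (SE 0.12, adjusted p 0.798).

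**Figure D2:**
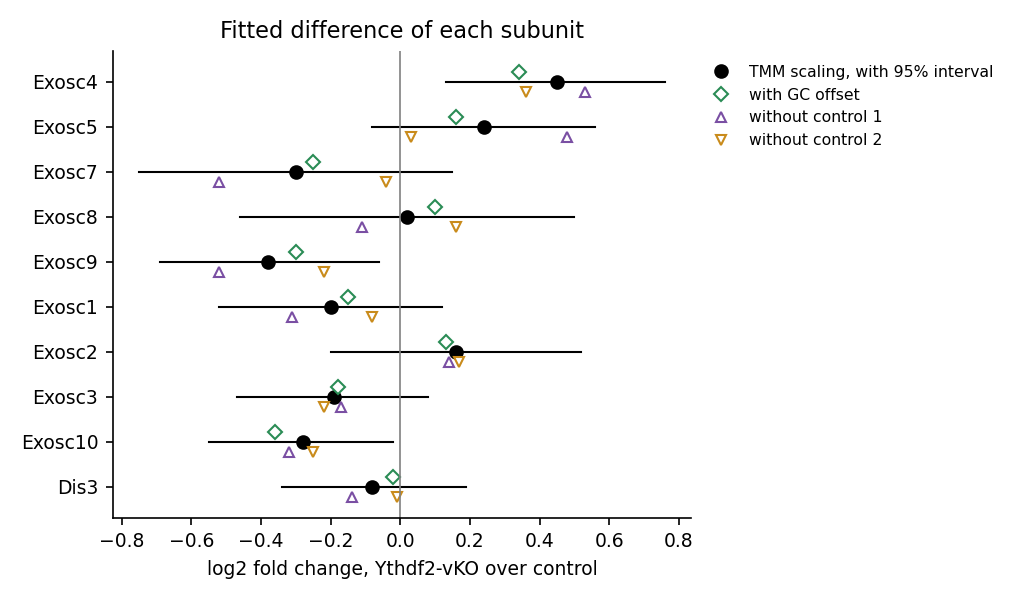
Fitted log2 fold change of the libraries labelled vKO over control (x axis) for each subunit (y axis); black points with bars are the TMM-scaled fit and its 95% interval, and open symbols are the fits with a GC offset and without each control library. The interval excludes 0 for Exosc4, Exosc9 and Exosc10 before adjustment for the number of genes, and the 2 fits without a control library are far apart for Exosc5 (0.03 and 0.48) and close for Exosc3 and Exosc10.

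Levels of different subunits were compared per kilobase of the merged exons of each gene. In control, Exosc3 was highest at 45.7 ± 1.26 CPM per kilobase (SD, n = 2), followed by Exosc10 at 36.5 ± 1.0 and Exosc5 at 33.2 ± 7.47. A middle group held Dis3 at 11.6 ± 0.696 CPM per kilobase, Exosc4 at 10.7 ± 0.900, Exosc9 at 8.65 ± 1.25 and Exosc1 at 6.57 ± 0.707. Exosc2 was at 4.73 ± 0.0524 CPM per kilobase, Exosc8 at 1.99 ± 0.257 and Exosc7 at 1.59 ± 0.360. Neighbours in this order whose control libraries overlapped were Exosc10 and Exosc5, Dis3 and Exosc4, and Exosc8 and Exosc7.

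In the libraries labelled vKO the order was nearly the same. Exosc3, at 39.9 ± 0.558 CPM per kilobase, overlapped with Exosc5 at 39.2 ± 0.519, and Exosc10 followed at 29.9 ± 1.76. Exosc4, at 14.5 ± 0.258 CPM per kilobase, then lay above Dis3, which had 11.1 and 10.9, whereas in control their libraries overlapped. Exosc1, at 5.72 ± 0.163, overlapped with Exosc2 at 5.29 ± 0.676. Exosc7 was lowest in both groups. These levels depend on the length used. The merged exons and the longest coding transcript are 6268 and 1680 nt for Exosc5, 6013 and 1053 nt for Exosc7 and 4053 and 1018 nt for Exosc1. On the length of the longest coding transcript, Exosc5 was first in control at 124 ± 27.9 CPM per kilobase, ahead of Exosc3 at 56.2 ± 1.54 and Exosc10 at 47.0 ± 1.29, and Exosc8 was last at 6.63 ± 0.858. Exosc1, at 26.2 ± 2.82, then lay above Dis3 and Exosc4, which it was below on merged exons. On that length Exosc7 was at 9.09 ± 2.06 CPM per kilobase in control and Exosc2 at 8.11 ± 0.0898. These overlapped, since the control libraries of Exosc7, at 7.64 and 10.5, spanned those of Exosc2, at 8.04 and 8.17. In the vKO-labelled pair Exosc7, at 7.59 and 7.22, lay below Exosc2, at 9.88 and 8.24.

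**Figure D3:**
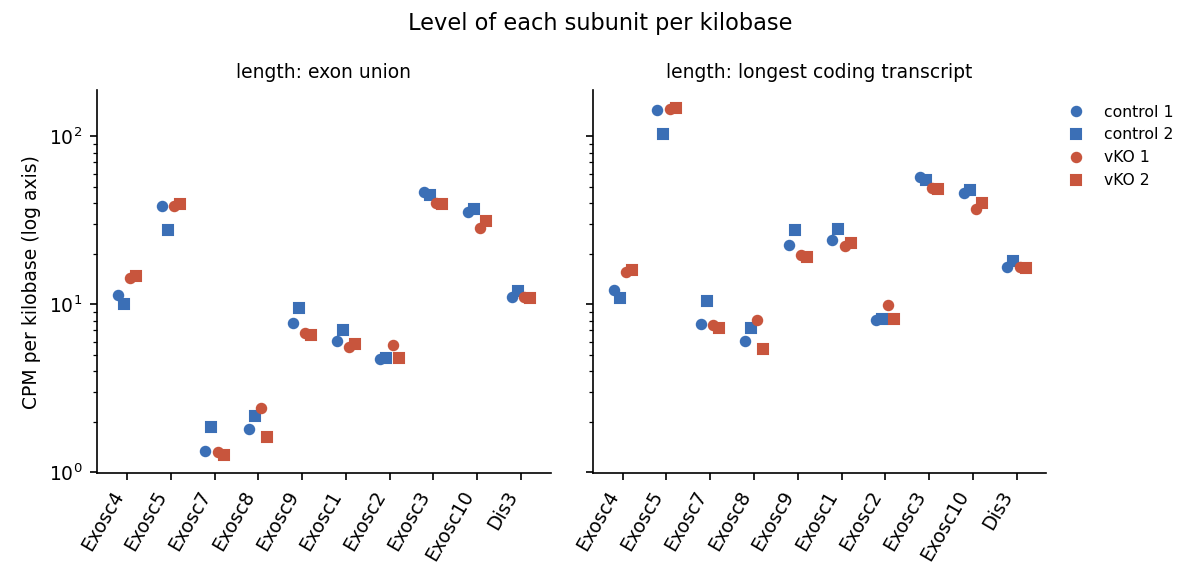
Level of each subunit in CPM per kilobase (log axis) in the 4 libraries, with length taken as the merged exons (left) or the longest coding transcript (right). Exosc7 is lowest on the left (1.26 to 1.85) and Exosc5 highest on the right (104 to 148).

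GC content of the transcripts moved with the values. Across tested genes, each library's departure from the mean of all 4 had a Spearman correlation with GC content of 0.02 and -0.36 in the control pair against 0.24 and 0.15 in the vKO-labelled pair. The subunit with the largest positive difference, Exosc4, had the highest GC content of the 10, at 54.9%, and the one with the largest negative difference, Exosc9, had the lowest, at 41.8%. Exosc10 stood apart from this order, with a GC content of 53.2% and a log2 fold change of -0.28. Over the 10 subunits the log2 fold change and GC content had a Pearson correlation of 0.60 and a Spearman correlation of 0.58. These 10 points share the same 4 libraries. Over all genes tested, the median log2 fold change was -0.08 for transcripts under 45% GC and 0.16 for those of 55% and over. With an offset for GC content, Exosc4 went from 0.45 to 0.34, Exosc5 from 0.24 to 0.16, Exosc9 from -0.38 to -0.30 and Exosc10 from -0.28 to -0.36. The signs of all 10 were the same with the offset as without it.

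**Figure D4:**
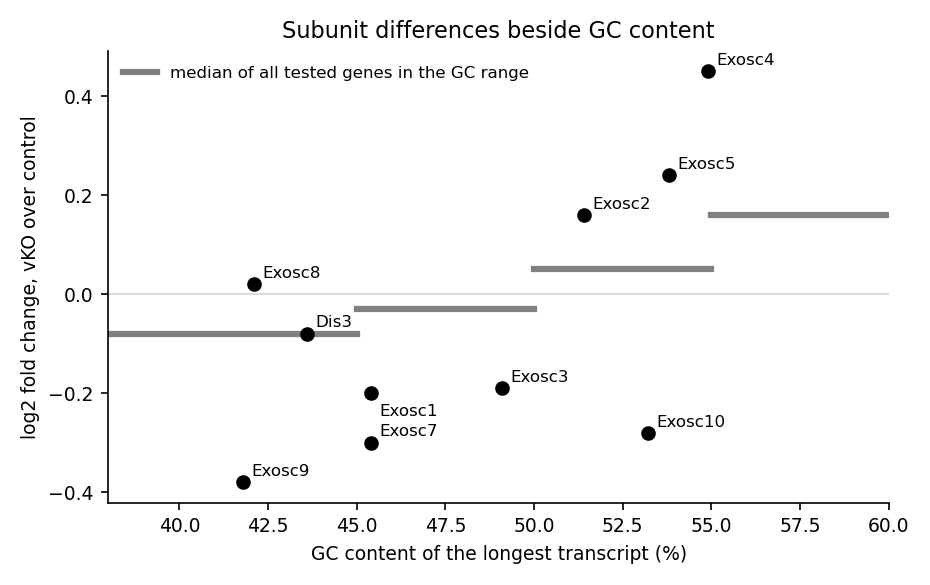
Log2 fold change of each subunit (y axis) against the GC content of its longest transcript in percent (x axis); grey bars are the medians of all tested genes in 4 GC ranges, the outer ranges being drawn only to 38% and 60%. In the range from 50% to 55% GC, Exosc2, Exosc4 and Exosc5 lie above the bar and Exosc10 below it. Of the subunits under 50% GC, Exosc1, Exosc3, Exosc7 and Exosc9 lie below the bar of their own range. Exosc8 lies above its bar, and Dis3 is level with it at -0.08.

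Several subunits overlap other genes, and the use of strand in the counting is not given in the sources used here. In the GENCODE M21 annotation, exons on the opposite strand overlap Exosc9 by 510 nt (Ccna2), Exosc4 by 385 nt (Oplah), Exosc2 by 358 nt (Gm13427), Exosc5 by 355 nt (Tmem91), Dis3 by 325 nt (Pibf1), Exosc8 by 89 nt (Supt20) and Exosc3 by 53 nt (Dcaf10). Without strand, reads from these stretches cannot be told apart, so the values of these 7 subunits carry that uncertainty. Oplah, with 3889 and 3480 counts in the control pair against 3810 and 3350 in the vKO-labelled pair, was counted more than Exosc4 and had a log2 fold change of -0.08 (adjusted p 0.877). Supt20 had 17241 and 20059 counts in the control pair against 15868 and 16421 in the vKO-labelled pair (log2 fold change -0.23, SE 0.12). Exosc8 had 183 and 282 against 281 and 189. How far an overlap affected the count of a subunit was not tested. Tmem91 had 135 and 199 counts in the control pair against 62 and 114 in the vKO-labelled pair (log2 fold change -0.92, adjusted p 0.180), few beside the counts of Exosc5. Pibf1 had 768 and 1124 counts in the control pair against 698 and 697 in the vKO-labelled pair, fitted at -0.44 on the log2 scale (SE 0.14, adjusted p 0.193). Ccna2, the cyclin A2 gene, had a log2 fold change of 0.20 (adjusted p 0.723), opposite in sign to Exosc9. Exosc1, Exosc7 and Exosc10 overlapped no exon of another gene.

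For 4 subunits a gene on the opposite strand starts within 1000 bases before their own start. These neighbours were chosen by position and not by value. Zdhhc3 starts 10 bases from Exosc7, Zdhhc16 57 bases from Exosc1, Alg5 146 bases from Exosc8 and Bckdha 183 bases from Exosc5. Their log2 fold changes were 0.07 for Zdhhc3, 0.02 for Zdhhc16, 0.18 for Alg5 and -0.02 for Bckdha, with adjusted p values from 0.733 to 0.976. Each of these values was smaller than its SE (0.15, 0.18, 0.19 and 0.13 in that order), so the signs of the neighbours are not determined. The fitted values of the subunits were -0.30 for Exosc7, -0.20 for Exosc1, 0.02 for Exosc8 and 0.24 for Exosc5. None of the 8 genes was called.

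Cofactors that bring RNA to the exosome were read from a list of 23 genes, covering the nuclear helicase MTREX and its adaptor complexes, the cap-binding proteins that recruit them, and the cytoplasmic SKI complex. All 23 were tested and 0 were called by edgeR, which called 0.393% of all genes, or by a DESeq2 Wald test. At an unadjusted p under 0.05 there was 1, lower, in each test, where edgeR had 14.1% of all genes. The median log2 fold change was -0.05, with 7 above 0 and 16 below, against 49.7% of all genes below 0. Scaled by library totals, 14 of the 23 lay above 0, but that scaling moved the median of all genes to 0.07, with 59.5% of them above 0. Under the GC offset it was 10 of the 23, against 49.4% of all genes.

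The gene that passed the unadjusted threshold was Ncbp1, which encodes the large subunit of the nuclear cap-binding complex. It had 9213 and 12106 counts in the control pair against 8217 and 9057 in the vKO-labelled pair, or 394 and 404 CPM against 307 and 336 CPM. On the log2 scale the fitted difference was -0.31 (SE 0.12), with an unadjusted p of 0.0198 and an adjusted p of 0.255. Mtrex, the RNA helicase that feeds the nuclear exosome, had 172 and 188 CPM in the control pair against 146 and 160 CPM in the vKO-labelled pair, so its groups did not overlap (log2 fold change -0.23, SE 0.12, adjusted p 0.420). Zc3h14, a gene for a nuclear poly(A)-binding protein, was at 576 and 608 CPM against 527 and 527 CPM (log2 fold change -0.17, adjusted p 0.560). Srrt, whose product links the cap-binding complex to RNA decay, was at 207 and 163 CPM against 221 and 209 CPM (log2 fold change 0.22, adjusted p 0.521). Zc3h18 had a log2 fold change of 0.26 (adjusted p 0.576), and Zcchc8, the scaffold of the nuclear exosome targeting complex, 0.16 (adjusted p 0.627). Without control replicate 1, where 6.82% of all genes were called, 5 cofactors were called, namely Zc3h3 (0.68), Zc3h18 (0.55), Srrt (0.39) and Skiv2l (0.37) higher and Ncbp1 (-0.34) lower; Zc3h3 and Skiv2l were named after their values were seen.

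Exonucleases that act from the 3′ end outside the exosome formed a list of 15 genes, all tested. None of the 15 was called by edgeR or by a DESeq2 Wald test, and 0 had an unadjusted p under 0.05 in either, against 14.1% of all genes by edgeR. The median log2 fold change was -0.14, with 3 above 0 and 12 below (49.7% of all genes lay below), and -0.07 with either library totals alone or the GC offset. The smallest unadjusted p, 0.0682, was that of Rexo5, at 153 and 160 CPM in the control pair against 129 and 136 CPM in the vKO-labelled pair (log2 fold change -0.24, SE 0.12, adjusted p 0.401). Eri2 (-0.29), Rexo4 (-0.23) and Usb1 (-0.21), the last the gene of the enzyme that trims U6 small nuclear RNA, were lower by similar amounts, with adjusted p values of 0.504, 0.525 and 0.567. Eri3 and Pnldc1, the gene of the enzyme that trims piRNA precursors in germ cells, had log2 fold changes of 0.24 and 0.31 (adjusted p 0.460 and 0.536).

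**Figure D5:**
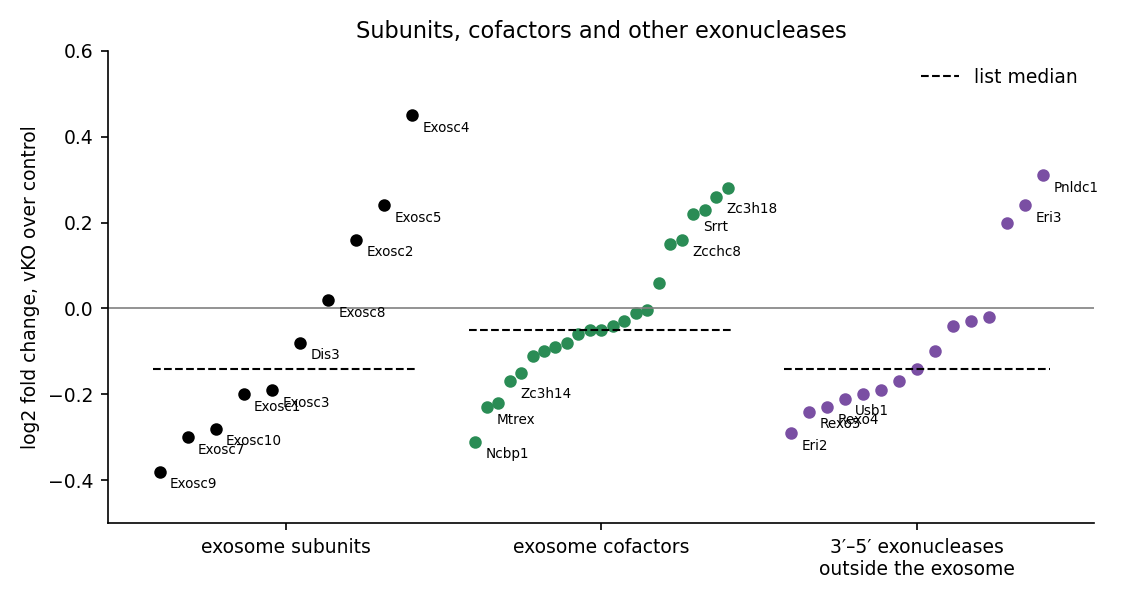
Log2 fold change of the libraries labelled vKO over control (y axis) for each gene of 3 lists, sorted within a list, with dashed lines at the list medians. Medians are -0.14 for the subunits, -0.05 for the cofactors and -0.14 for the other exonucleases, and Exosc4 (0.45) and Exosc9 (-0.38) mark the ends of the range over the 3 lists.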

How the data were processed

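RNA of whole testis was sequenced in 2 control libraries and 2 libraries labelled Ythdf2-vKO. The authors deposited raw read counts per gene, made with HISAT2 2.1.0 and HTSeq 0.6.1p1 per the submitters' processing notes. The genome build and the strand setting are not given in the sources used here. Per the file headers, the authors also deposited a mean normalized count (a signal), a test score, a log2 fold change and its standard error, and p-values with adjusted p-values. The column names are those of DESeq2, and these columns were not used for the results.

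Counts were tested with edgeR 4.0.16 (R 4.3.3): TMM scaling, the filterByExpr filter, a quasi-likelihood fit with robust estimation and genotype as its only term, a two-sided F test and Benjamini-Hochberg adjustment over 21132 genes, called under 0.05. The 4 libraries left 2 residual degrees of freedom per gene. The median total was 12.9, the remainder coming from the spread shared across genes. CPM are counts scaled to library size with TMM factors. The fit was tested on simulated data. The differences set there were all larger than those fitted for the subunits, so that test does not bear on differences of their size. Alternatives were other scalings and filters, a non-robust fit, DESeq2 1.42.0, offsets for GC content and gene length, the replicate block, a prior count of 2 and leaving out each library. Of the identifiers, 25261 matched GENCODE M21 (GRCm38), which gave coordinates, lengths and GC content. Promoters are from RefSeq (GRCm38.p6). No transcript of another gene matched a subunit at 90% identity over 200 nt, other than genes overlapping it.

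The genes named are Ythdf2, the members, Dis3l, genes overlapping a member, and the 6 genes of smallest p in each of the cofactor and exonuclease lists. Outside this rule, 4 neighbours were named by the position of their start, and Clu, Wt1, Zc3h3, Skiv2l, Isg20 and Rexo1 after their values were seen. The members and lists were chosen with earlier results of these data known. The length of the longest coding transcript was added as an alternative after the data had been seen.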

Additional observations from a re-analysis of the deposited data

How the results depend on the processing

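No setting that kept all 4 libraries called an exosome subunit, except the GC offset with the replicate block, which called 1 (Exosc10). Leaving out single libraries gave 0 to 3 calls among the subunits, 0 to 5 among the cofactors and 0 to 1 among the other exonucleases, and a subunit median from -0.19 to -0.03. Those fits leave 1 library in a group, which is assumed to vary like the others. The calls, all without control replicate 1, included the subunits Exosc4, Exosc5 and Exosc9 and the exonuclease Rexo1. That fit called 6.82% of all genes, against 4.93% without control replicate 2 and 0.160% and 0.446% without replicate 1 and replicate 2 labelled vKO. Exosc8 was the subunit whose sign turned, to -0.01 with the gene length offset, -0.0018 with the replicate block and -0.03 with both, and to between -0.30 and 0.28 without single libraries. The GC offset with the replicate block, which called 6.26% of all genes, also called 1 exonuclease (Isg20, named after its values were seen) and Ythdf2 (log2 fold change 0.40, adjusted p 0.00849). Calls over all genes numbered 83. They were 218 with library totals alone, 139 with the GC offset, 217 with a DESeq2 Wald test, 1017 with the replicate block, 1323 with the GC offset and the block, 251 with the gene length offset and the block, and 35 to 1512 without single libraries. The cause was not tested. The labels do not say what the replicate numbers mark, and deviations of same-numbered libraries correlated at 0.0860 across genes, so the numbers were not taken as pairs. Exosc8, with 183 to 282 counts per library, had a 95% interval from -0.46 to 0.50.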

Other observations

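Ratios of counts within a library do not depend on scaling between libraries. The pairs below were chosen after their values were seen and were not tested. Exosc4 and Exosc9, whose proteins pair in the exosome ring, had a count ratio of 0.601 and 0.434 in the control pair against 0.881 and 0.921 in the vKO-labelled pair. They were the subunits with the largest fitted differences in opposite directions, so the lack of overlap between groups followed from the choice of the pair. Exosc4 and Exosc9 also had the highest and lowest GC content of the 10 (54.9% and 41.8%). A ratio does not remove a trend with GC content that differs between libraries. The ratio of Exosc10 to Dis3 was 1.49 and 1.42 in the control pair against 1.20 and 1.33 in the vKO-labelled pair. The ratio of the cytoplasmic to the nuclear processive exonuclease gene, Dis3l to Dis3, overlapped between groups, at 4.29 and 3.55 against 3.94 and 3.80. The 10 subunits together held 630 and 589 CPM in the control pair against 604 and 609 CPM in the vKO-labelled pair. Their summed level overlapped between the groups, while single members lay up to 1.36-fold apart. Exosc5 alone held 29.7% to 40.7% of that sum. Without Exosc5, the sum was 389 and 414 CPM in the control pair against 360 and 361 CPM in the vKO-labelled pair, and did not overlap. This difference was not tested.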
